A study of Mus musculus with 8 samples.

Results

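Circadian clock genes and genes under clock control were examined in mouse liver after knockdown of Raly, which encodes an hnRNP that binds RNA. The set held 29 named genes, chosen by the gene name printed for each probe on the array, with older names allowed for Arntl and Ciart, and each gene was represented by its probe of highest mean signal. All 29 genes had a probe, and 28 of them passed the filter on dim signals, among 14874 genes tested on the array. The exception was Npas2, a partner of Arntl that can stand in for Clock, which was not well above background on any of the 8 arrays and so has no fold change. Bhlhe41 was well above background on 2 control and 3 shRaly arrays, and the other 27 genes on all 8.

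Total RNA of whole liver was hybridised to single-colour arrays (Cy3), 4 from bl6 mice transduced with the control construct pblockITcontrol and 4 from bl6 mice transduced with pblockITshRaly, which carries a short hairpin against Raly and is labelled as adenoviral. All mice were 12 weeks old and on chow diet, all received virus at 2e+09 (no unit given), and all livers were taken on day 6. The hour of collection and the feeding state are not given in the sources used here, and no group without virus was analysed here. Nothing in the labels says that each numbered sample is a different mouse, so the spread behind the p-values may be technical.

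The arrays were alike in detection, with 45.9% to 51.1% of spots well above background. Within groups, pairs of arrays correlated over genes at 0.987 to 0.995. All 8 arrays lay on 1 slide in 1 scan, with the controls in row 1 and the shRaly arrays in row 2, and the effect of the row cannot be told apart from that of the group. All 8 hepatocyte markers were well above background on every array. By limma 0 of them differed past the threshold and 3 had an unadjusted p under 0.05, against 1.22% and 16.1% of all genes. Raly itself was at 62.5% of the control level (log2 fold change -0.68, SE 0.15, n = 4 and 4; adjusted p = 0.0749 by limma), and its groups were separate (two-sided exact permutation p = 0.0286, the lowest value possible with 4 against 4 arrays). On shRaly 2 it was 80.9% and on control 2 84.3% of the control mean.

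The mammalian clock is a feedback loop of transcription. Arntl (BMAL1) pairs with Clock or Npas2 on E-box elements and drives the Per and Cry genes, whose proteins return to inhibit the pair, and the Nr1d1, Nr1d2 and Dbp genes. Nr1d1 and Nr1d2 (REV-ERBs) repress, and Rora activates, genes with ROR elements such as Arntl and Nfil3, while Dbp, Tef and Hlf compete with Nfil3 for D-box elements. In mouse liver Nr1d1 peaks during the day, Dbp somewhat later, Per1 and Per2 later still and Cry1 during the night, with Arntl and Npas2 roughly opposite to Nr1d1 and Dbp. A shift of the clock between groups could appear as opposite differences in the genes of the E-box arm and of the ROR element arm. How far it would do so depends on the hour of collection, which is not given. Genes that peak one after another need not share a direction within an arm.

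Promoter sequences are shown for 5 members whose values are described below. Each holds the letters of 1 of the 3 elements, as do other members named after the sequences. Per1 and Arntl also had a window without a match, which is not shown. The sequences are RefSeq promoters of build GRCm38.p6, printed along the gene's strand with every match in capitals. They run from 250 bases before the annotated start to 50 after it. The letters searched on both strands were CACGTG (E-box), TTATGTAA or TTACGTAA (D-box) and AAGGTCA or TAGGTCA (ROR element). Of the 29 members 24 had a promoter in the table; Per2, Bhlhe40, Csnk1d, Wee1 and Rbm3 did not. The windows are Ciart, chr3:95882179-95882478 on the minus strand, with E-boxes starting 116, 58 and 44 bases before the start, and Per1, chr11:69098699-69098998 on the plus strand, with an E-box starting 166 bases before it. Per3, chr4:151044616-151044915 on the minus strand, has D-boxes starting 205 and 158 bases before the start. Arntl, chr7:113207261-113207560 on the plus strand, has a ROR element starting at base 31 of the transcript. Nfil3, chr13:52980990-52981289 on the minus strand, has one on the opposite strand, starting 12 bases before the start.
Ciart: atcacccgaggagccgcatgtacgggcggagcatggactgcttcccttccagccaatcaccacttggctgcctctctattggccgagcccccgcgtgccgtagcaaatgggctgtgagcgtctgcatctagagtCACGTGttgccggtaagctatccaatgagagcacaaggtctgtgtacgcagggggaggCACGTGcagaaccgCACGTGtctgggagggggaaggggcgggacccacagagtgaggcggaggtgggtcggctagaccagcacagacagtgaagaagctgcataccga
Per1: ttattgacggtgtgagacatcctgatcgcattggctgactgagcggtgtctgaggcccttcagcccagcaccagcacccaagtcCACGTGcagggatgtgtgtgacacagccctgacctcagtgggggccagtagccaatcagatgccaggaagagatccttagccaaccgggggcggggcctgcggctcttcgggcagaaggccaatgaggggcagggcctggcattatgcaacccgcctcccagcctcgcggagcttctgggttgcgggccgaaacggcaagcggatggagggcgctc
Per3: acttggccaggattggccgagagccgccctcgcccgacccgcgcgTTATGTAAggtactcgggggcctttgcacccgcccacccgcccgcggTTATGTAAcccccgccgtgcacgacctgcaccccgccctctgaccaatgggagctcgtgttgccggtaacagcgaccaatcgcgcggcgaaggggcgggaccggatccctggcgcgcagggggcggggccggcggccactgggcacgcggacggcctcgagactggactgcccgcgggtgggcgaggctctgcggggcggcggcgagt
Arntl: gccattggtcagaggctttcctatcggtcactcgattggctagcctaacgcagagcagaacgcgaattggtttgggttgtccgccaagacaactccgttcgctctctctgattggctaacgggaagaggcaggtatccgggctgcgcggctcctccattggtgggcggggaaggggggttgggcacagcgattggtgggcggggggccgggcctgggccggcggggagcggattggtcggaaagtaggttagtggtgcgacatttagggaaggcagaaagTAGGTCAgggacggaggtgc
Nfil3: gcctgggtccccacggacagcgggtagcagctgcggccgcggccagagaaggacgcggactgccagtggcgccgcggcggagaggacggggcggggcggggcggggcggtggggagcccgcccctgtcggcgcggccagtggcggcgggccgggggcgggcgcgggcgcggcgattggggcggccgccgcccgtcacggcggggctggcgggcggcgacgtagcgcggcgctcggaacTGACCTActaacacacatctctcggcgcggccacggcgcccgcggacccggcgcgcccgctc

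The E-box letters stood in at least 1 promoter of 7 of the 24 members (Bhlhe41, Ciart, Cry1, Lonrf3, Per1, Tef and Tspan4), against 8.09% of the 27025 genes in the table. The D-box letters stood in 2 (Per3 and Timeless, against 1.23%) and the ROR element letters in 2 (Arntl and Nfil3, against 8.11%). The matches shown share no bases with each other. A match describes the letters only. A window without one, as for Dbp and Nr1d1, covers only the stretch searched and no other element of the gene.

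None of the 28 genes passed the threshold between the groups. With limma and Benjamini-Hochberg adjustment over all genes tested, 0 of 28 were past an adjusted p of 0.05, 0 higher and 0 lower in shRaly livers, where 1.22% of all genes were. At an unadjusted p under 0.05 there were 7 of 28 (25.0%), against 16.1% of all genes: Per1, Usp2, Nampt and Tsc22d3 with higher and Nr1d1, Nfil3 and Timeless with lower means in shRaly livers. The 4 higher and 3 lower members stand beside 6.41% and 9.71% of all genes. The groups did not overlap for 1 of the 28 genes (3.57%), Timeless, against 10.4% of all genes. The median log2 fold change of the set was -0.01, and that of all genes -0.02. The other 21 genes had adjusted p from 0.317 to 0.992. In RNA of whole liver, fewer cells of a type and less RNA per cell cannot be told apart.

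**Figure D1:**
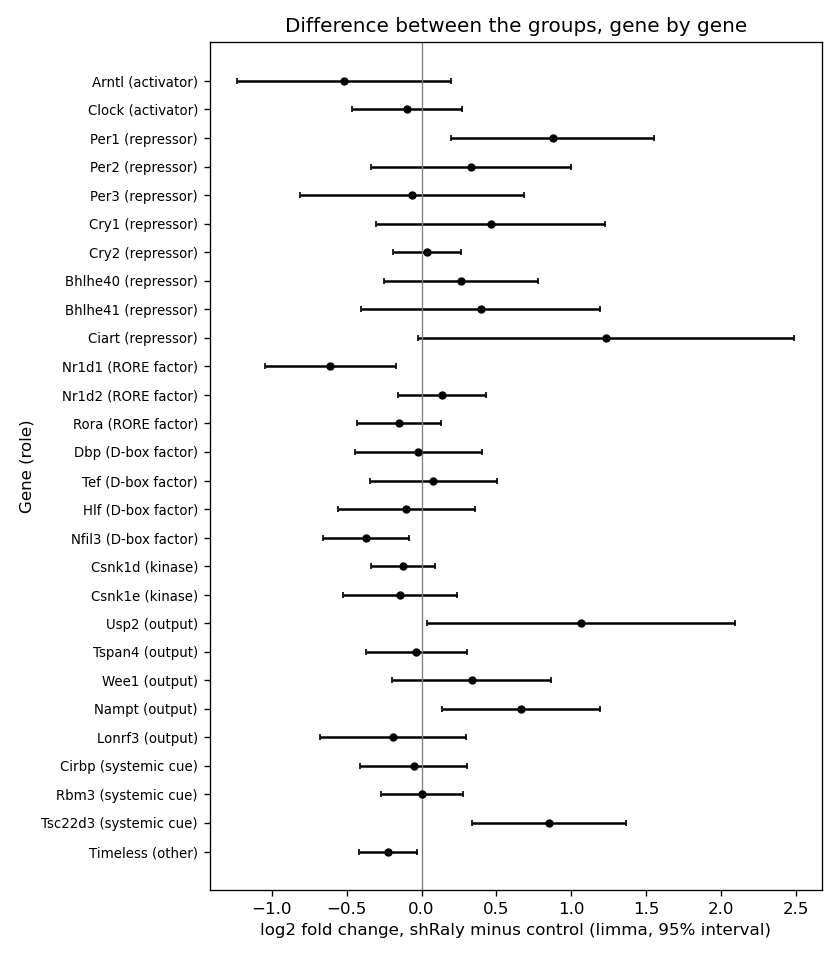
Log2 fold change of each of the 28 measured genes (shRaly minus control, x axis) with its 95% interval from limma, ordered by role. Ciart at 1.23 and Usp2 at 1.06 have the highest estimates and wide intervals, and Nr1d1 at -0.61 the lowest.

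Arntl, the activator that the rest of the loop depends on, was read by a probe at chromosome 7, 120457261 to 120457320 (mm9). Relative to the control mean it was 66.4%, 119%, 166% and 76.2% on control 1 to 4 and 56.2%, 60.7%, 109% and 64.0% on shRaly 1 to 4. Control 2, control 3 and shRaly 3 were high and the other 5 arrays low, so the groups overlapped. The log2 fold change was -0.52 (SE 0.31, adjusted p = 0.461 by limma), and without control 3 it was -0.27. Clock, its histone acetyltransferase partner, ran from 73.8% to 125% on the controls and from 83.3% to 109% on the shRaly arrays, with a log2 fold change of -0.10 (SE 0.16).

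The Per genes encode repressors of Arntl and Clock. Per1, which glucocorticoids also induce, was 107%, 68.0%, 73.5% and 187% of the control mean on control 1 to 4 and 232%, 175%, 175% and 159% on shRaly 1 to 4 (probe at chromosome 11, 68923364 to 68923423, mm9). Controls 1 to 3 lay below every shRaly array and control 4 among them. For Per1 the log2 fold change was 0.88 (SE 0.30, 95% interval 0.20 to 1.55; adjusted p = 0.201 by limma; two-sided exact permutation p = 0.114). Per2 was 149%, 82.8%, 58.9% and 138% on the controls and 168%, 123%, 106% and 114% on the shRaly arrays. Control 2 and control 3 were thus the lowest of the 8 arrays for Per2 as well, and the log2 fold change of 0.33 (SE 0.29) became 0.07 without control 3. Per3 was 171%, 77.0%, 68.6% and 111% on the controls and 156%, 96.4%, 67.6% and 82.0% on the shRaly arrays, so the groups covered the same range (log2 fold change -0.07, SE 0.33).

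Among the other repressors, Ciart, which represses Arntl and Clock, varied most. It was 151%, 63.7%, 35.9% and 289% of the control mean on control 1 to 4 and 267%, 234%, 211% and 233% on shRaly 1 to 4 (probe at chromosome 3, 95682433 to 95682492, mm9). The 4 shRaly arrays were close together, within the span of the controls, which ran from below all of them to above all of them. The control SD was 1.33 and the shRaly SD 0.14 on the log2 scale (n = 4 each). The log2 fold change was 1.23 (SE 0.55, adjusted p = 0.317 by limma; two-sided exact permutation p = 0.143), 0.74 without control 3 and 1.75 without control 4.

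Cry1 and Cry2, the cryptochrome repressors, had log2 fold changes of 0.46 (SE 0.34) and 0.03 (SE 0.10). Cry1 ran from 71.9% to 163% on the controls and from 75.7% (shRaly 1) to 191% (shRaly 3) on the shRaly arrays, while Cry2 stayed between 88.7% and 113% on all 8. Bhlhe40 and Bhlhe41 (DEC1 and DEC2), which compete for E-boxes, stood at 0.26 (SE 0.23) and 0.39 (SE 0.35). For Bhlhe41, control 3 was the lowest of the 8 arrays at 59.7% and control 2 next at 77.0%.

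**Figure D2:**
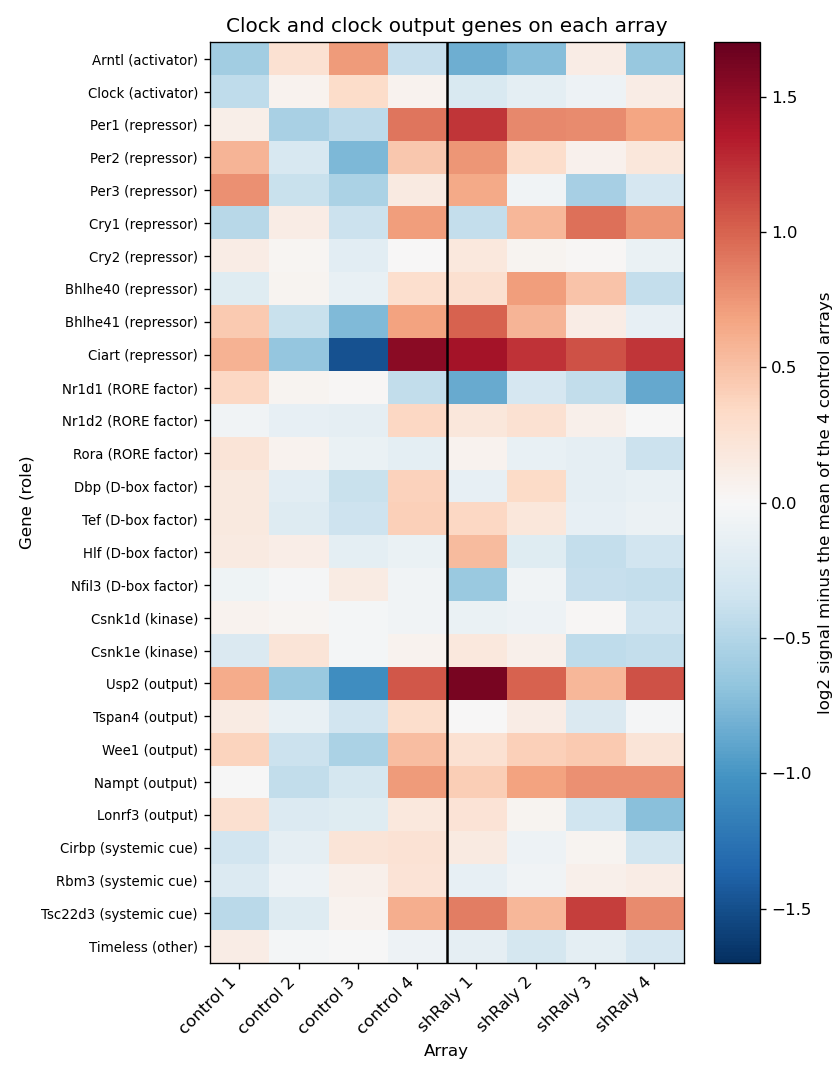
Log2 signal of each of the 28 measured genes (rows, with their role) on each array (columns) minus the mean of the 4 control arrays. On control 2 and control 3 Ciart, Usp2, Per1, Per2, Bhlhe41, Wee1 and Nampt lie below the control mean and Arntl above it; Ciart and Usp2 are above the control mean on all 4 shRaly arrays.

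The nuclear receptors of the second loop did not share a direction. Nr1d1 was 128%, 103%, 101% and 74.6% of the control mean on control 1 to 4 and 55.2%, 81.7%, 74.5% and 54.7% on shRaly 1 to 4 (probe at chromosome 11, 98630526 to 98631028, mm9). All shRaly arrays were below controls 1 to 3, and control 4 lay between shRaly 2 and shRaly 3. Its log2 fold change was -0.61 (SE 0.19, 95% interval -1.05 to -0.17; adjusted p = 0.172 by limma; two-sided exact permutation p = 0.0571). Its paralog Nr1d2 was between 89.7% and 128% on the controls and between 99.4% and 120% on the shRaly arrays, with a log2 fold change of 0.13 (SE 0.13). Rora, the activator at the same elements, stood at -0.15 (SE 0.12).

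Of the D-box factors, Nfil3, the repressor, was 95.2%, 98.9%, 110.4% and 96.2% on control 1 to 4 and 64.4%, 95.9%, 76.5% and 75.4% on shRaly 1 to 4 (probe at chromosome 13, 53062578 to 53062637, mm9). Only shRaly 2 reached the control range. Nfil3 had a log2 fold change of -0.37 (SE 0.13, 95% interval -0.66 to -0.09; adjusted p = 0.200 by limma). Leaving out single arrays gave -0.48 (without shRaly 2) to -0.28 (without shRaly 1), with adjusted p from 0.0746 to 0.392. The activators Dbp, Tef and Hlf had log2 fold changes of -0.02 (SE 0.19), 0.08 (SE 0.19) and -0.10 (SE 0.20). Dbp was 112%, 88.1%, 76.7% and 132% on the controls and 90.4%, 126%, 90.2% and 92.0% on the shRaly arrays, with shRaly 2 apart from the other 3. Its 95% interval of -0.44 to 0.40 does not show that the groups were equal.

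Genes downstream of the clock were read in the same way. Usp2, a deubiquitinase with a strong daily rhythm in liver, was 155%, 64.8%, 48.0% and 207% on control 1 to 4 and 305%, 201%, 148% and 211% on shRaly 1 to 4 (probe at chromosome 9, 43903649 to 43903708, mm9). Control 2 and control 3 lay below every shRaly array, and control 1 and control 4 among them. Its log2 fold change was 1.06 (SE 0.45, adjusted p = 0.293 by limma), 0.71 without control 3 and 1.41 without control 4. Nampt, the rate-limiting enzyme of NAD salvage and an E-box target, was 99.3%, 74.6%, 81.6% and 165% on the controls and 134%, 161%, 171% and 172% on the shRaly arrays (probe at chromosome 12, 33535475 to 33535534, mm9). Controls 1 to 3 lay below all shRaly arrays, and control 4 among them. Its log2 fold change was 0.67 (SE 0.23, adjusted p = 0.211 by limma). Leaving out single arrays gave 0.52 (without control 2) to 0.91 (without control 4), with adjusted p from 0.0528 to 0.414.

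Wee1, the mitotic inhibitory kinase with E-boxes in its promoter, was 130.0%, 77.7%, 68.7% and 144% on the controls and between 116% and 136% on the shRaly arrays (log2 fold change 0.33, SE 0.23). The tetraspanin gene Tspan4 and the ring finger gene Lonrf3 had log2 fold changes of -0.03 (SE 0.15) and -0.19 (SE 0.21). A second Lonrf3 probe had the opposite sign, 0.14. The kinases that mark PER proteins for degradation, Csnk1d and Csnk1e, stood at -0.13 (SE 0.09) and -0.15 (SE 0.17).

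Timeless, a replication fork protein named for its fly relative, was the member whose groups did not overlap. It was 109%, 97.6%, 99.2% and 94.5% on control 1 to 4 and 90.0%, 81.5%, 89.1% and 81.8% on shRaly 1 to 4 (probe at chromosome 10, 127689823 to 127689882, mm9). The difference was small, with a log2 fold change of -0.23 (SE 0.09; adjusted p = 0.248 by limma; two-sided exact permutation p = 0.0286), and the within-group SD of 0.08 was at the 3.83rd percentile of genes of similar signal. A second Timeless probe had a log2 difference of -0.27, but its groups overlapped (two-sided exact permutation p = 0.114). On that probe shRaly 4 was at 108% of the control mean.

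Tsc22d3 (GILZ), a target of the glucocorticoid receptor, had the smallest p of the set. It was 72.8%, 85.7%, 105% and 153% on control 1 to 4 and 183%, 148%, 225% and 175% on shRaly 1 to 4 (probe at chromosome X, 137074094 to 137074153, mm9). Only control 4 reached the lowest shRaly array. The log2 fold change was 0.85 (SE 0.23, 95% interval 0.34 to 1.37; adjusted p = 0.119 by limma; two-sided exact permutation p = 0.0571), and leaving out single arrays gave 0.70 (without control 1) to 1.06 (without control 4), with adjusted p from 0.0598 to 0.276. The cold-inducible RNA-binding proteins Cirbp and Rbm3, which follow body temperature, had log2 fold changes of -0.05 (SE 0.16) and 0.00 (SE 0.12). Cirbp ran from 80.0% to 119% and Rbm3 from 85.2% to 117% over all 8 arrays.

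**Figure D3:**
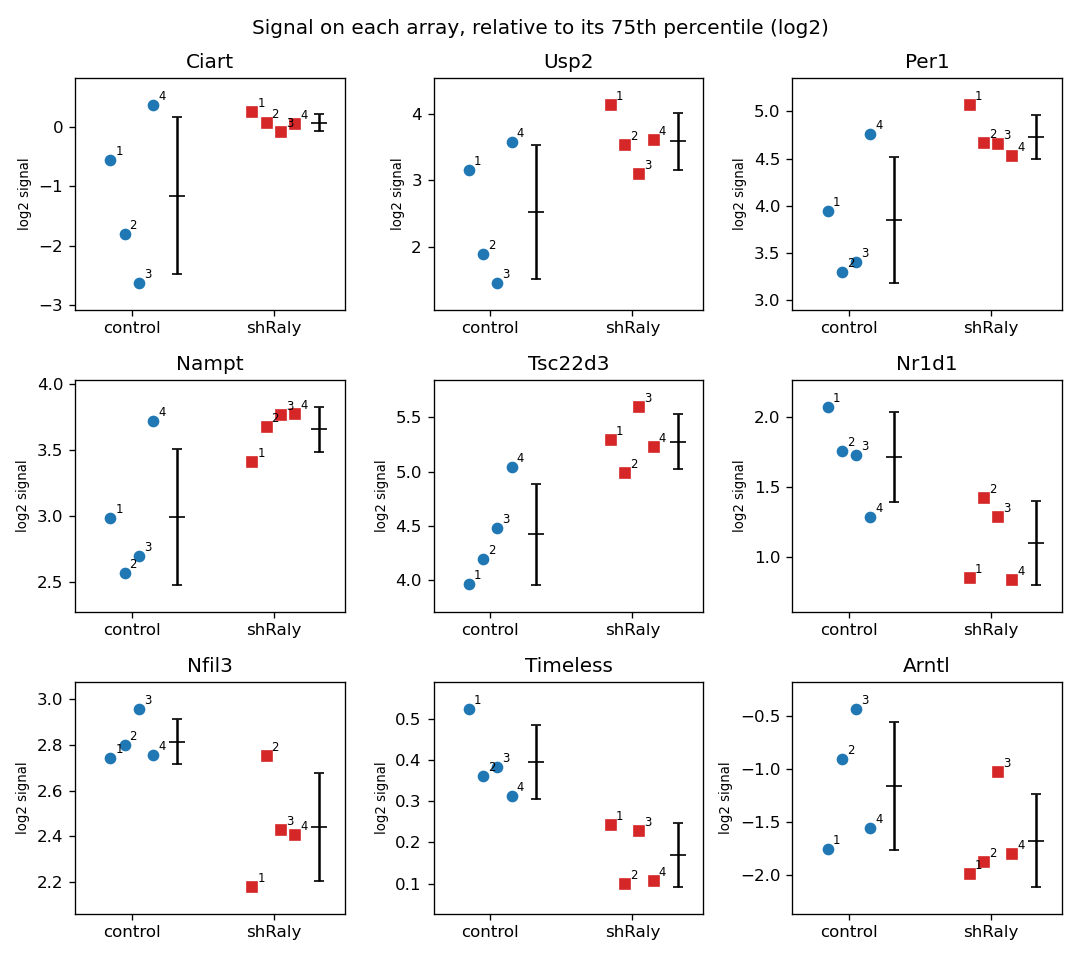
Log2 signal relative to the 75th percentile of the array (y axis) for 9 genes on each control array (circles) and shRaly array (squares), numbered by replicate, with the mean and SD of each group (n = 4) beside the points. The controls are spread widely for Ciart, Usp2 and Per1, and the groups do not overlap for Timeless.

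The 2 arms were then set against each other on each array. They are lists chosen by name for opposite phase in mouse liver, not by the promoter letters above. In the windows searched, only Ciart and Tef of the E-box arm hold the E-box letters. Clock, in the other arm, holds no ROR element letters there. Per1, Cry1, Bhlhe41, Nampt and Wee1 are in neither arm. The E-box arm (Nr1d1, Nr1d2, Dbp, Tef, Hlf, Per3, Ciart and Usp2) had medians of 0.26, -0.20, -0.37 and 0.37 on control 1 to 4 and 0.45, 0.23, -0.14 and -0.11 on shRaly 1 to 4, in log2 relative to the control mean. The ROR element arm (Arntl, Clock and Nfil3) had medians of -0.44, 0.06, 0.32 and -0.06 on the controls and -0.63, -0.16, -0.09 and -0.41 on the shRaly arrays. The difference of the arms was thus positive on control 1 (0.70), control 4 (0.43), shRaly 1 (1.08), shRaly 2 (0.39) and shRaly 4 (0.30), near 0 on shRaly 3 (-0.05) and negative on control 2 (-0.26) and control 3 (-0.68). Its mean was 0.05 (SD 0.63) in controls and 0.43 (SD 0.48) in shRaly livers (n = 4 each), a difference of 0.38 that was smaller than either SD. Within the E-box arm 4 genes had fold changes above 0 and 4 below 0, from -0.61 for Nr1d1 to 1.23 for Ciart. The PER and CRY repressors, of which only Per3 is in that arm, had 4 of 5 fold changes above 0 and a median of 0.33. Their medians were 0.13, -0.27, -0.44 and 0.46 on the controls and 0.64, 0.30, 0.08 and 0.19 on the shRaly arrays, so that all 4 shRaly arrays lay above 0 and above control 2 and control 3, 3 of them below control 4.

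The members varied more between arrays of one group than most genes did. Their median within-group SD was 0.32 on the log2 scale, against 0.19 for all genes. Among genes of similar mean signal (10 bins of equal size), 13 of the 28 were in the top 10% by SD and 25 in the upper 50%. Ciart (SD 0.95) and Usp2 (SD 0.77) were both at the 99.7th percentile of their bin, and Per1 (0.50), Arntl (0.53), Per2 (0.49) and Nampt (0.38) between the 96.2nd and 97.8th. Cry2 and Csnk1d, at the 40.6th and 38.8th percentile, and Timeless were the 3 members below the median. Control 3 was the lowest control array for 7 of the 8 E-box arm genes, where it was the lowest for 23.3% of all genes, and control 4 was the highest for 5 of the 8, against 32.2% of all genes.

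**Figure D4:**
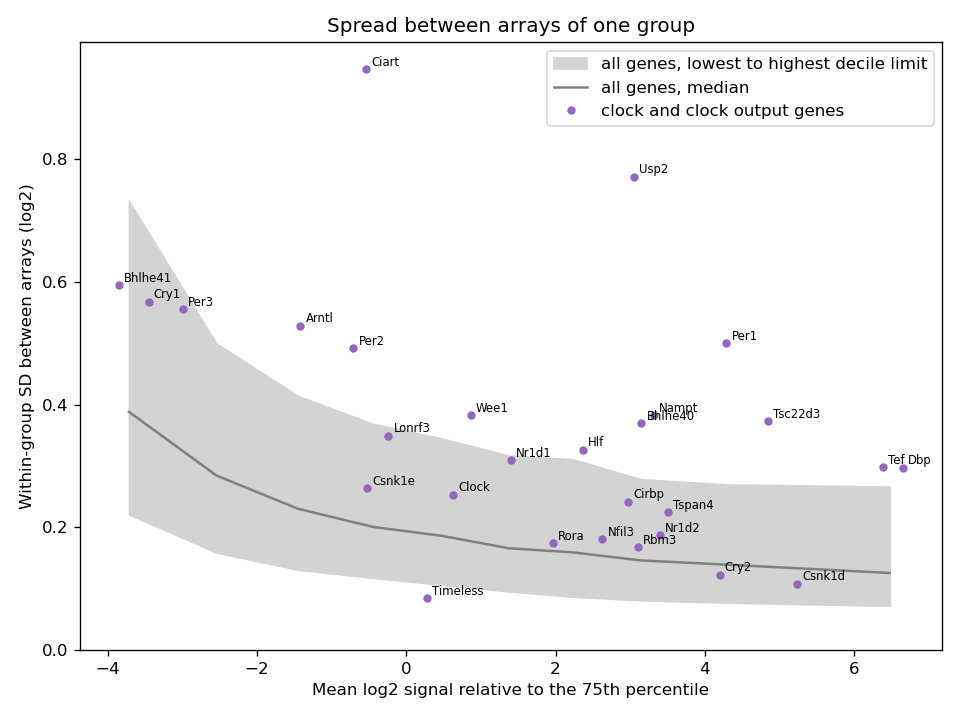
Within-group SD between arrays (log2, y axis) against mean log2 signal (x axis) for the 28 measured genes (points), with the median (line) and the 10th to 90th percentile (band) of all genes in 10 bins of mean signal. Ciart at 0.95 and Usp2 at 0.77 lie far above the band and Timeless at 0.08 below it.

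Members were also compared across the 8 arrays in 9 pairs chosen by name. Ciart ran against Arntl (Pearson r = -0.84, exact permutation p = 0.0104, adjusted over the 9 pairs 0.0892; Spearman rho = -0.71, exact permutation p = 0.0576, adjusted 0.187), and on deviations from the group means r was -0.78 (exact permutation p = 0.0747, adjusted 0.302). Without control 2 and control 3, the arrays farthest from the Arntl median, r was -0.12, so the pooled r depends on those arrays. Within the 4 controls r was -0.91 and within the 4 shRaly arrays -0.85, given as a description of 4 points each. Per3 against Arntl gave r = -0.72 (rho -0.67; exact permutation p = 0.0454 and 0.0831, adjusted 0.136 and 0.187), -0.87 on deviations (exact permutation p = 0.0226, adjusted 0.203) and -0.63 without the same arrays. Dbp against Arntl gave r = -0.61 (rho -0.60; exact permutation p = 0.109 and 0.132, adjusted 0.196 and 0.227), -0.73 on deviations and -0.16 without them. Clock against Arntl gave 0.66 (rho 0.57; exact permutation p = 0.0784 and 0.151, adjusted 0.176 and 0.227), 0.65 on deviations and 0.24 without them. For Per3 against Arntl r was -0.93 within the controls and -0.77 within the shRaly arrays. For Dbp against Arntl it was -0.92 and -0.33, and for Clock against Arntl 0.84 and 0.18. These values too describe 4 points each. None of the 9 pairs passed after adjustment.

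Nr1d1 was compared with Arntl and with Dbp. Against Arntl its r was 0.45 (rho 0.48; exact permutation p = 0.252 and 0.243, adjusted 0.284 and 0.301) and 0.15 on deviations, and against Dbp 0.06 (rho -0.12; exact permutation p = 0.883 and 0.793, adjusted 0.883 and 0.793). Per1 and Tsc22d3, both glucocorticoid-responsive, gave r = 0.80 (rho 0.67; exact permutation p = 0.0198 and 0.0831, adjusted 0.0892 and 0.187), 0.81 without control 2 and control 3, and 0.56 on deviations (exact permutation p = 0.333, adjusted 0.429). Dbp with Per3 gave 0.47 (rho 0.67) and Cirbp with Rbm3 0.47 (rho 0.45), with exact permutation p from 0.0831 to 0.267 and adjusted p from 0.187 to 0.301. The pooled values cover different relations within the groups of 4 arrays: for Cirbp with Rbm3 r was 0.97 in controls and -0.66 in shRaly livers, and for Dbp with Per3 0.75 and 0.01. For Per1 with Tsc22d3 r was 0.66 in controls and 0.07 in shRaly livers. The differences between these within-group values were not tested. Without the 2 arrays farthest from the median of the gene named first, r was 0.72 for Dbp with Per3 and 0.62 for Cirbp with Rbm3.

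**Figure D5:**
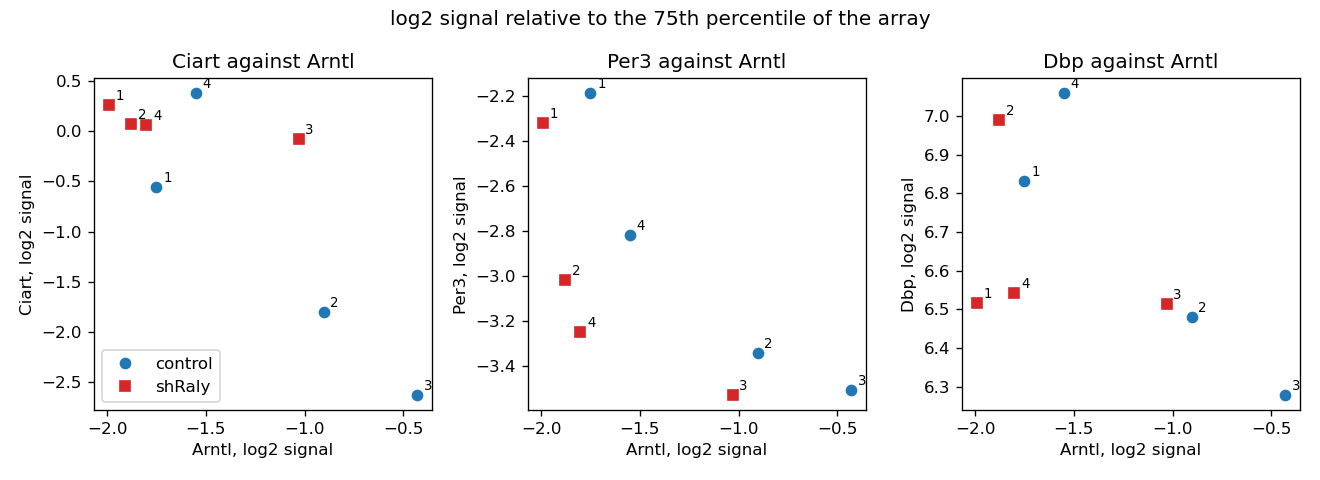
Log2 signal of Ciart, Per3 and Dbp (y axes) against that of Arntl (x axes) on each control array (circles) and shRaly array (squares), numbered by replicate. Control 2 and control 3 lie at high Arntl with low Ciart and low Dbp; Pearson r over the 8 arrays is -0.84, -0.72 and -0.61.

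Genes around the clock were counted from lists chosen by function. Of 24 other clock regulators (kinases, ubiquitin ligases and cofactors), 0 passed the threshold, and the median log2 fold change was 0.00. At an unadjusted p under 0.05, 1 had a higher and 1 a lower mean, against 6.41% and 9.71% of all genes. The higher one was Prkaa1, the AMP kinase subunit that acts on cryptochromes, at 97.9%, 94.0%, 101% and 108% on the controls and 133%, 119%, 136% and 117% on the shRaly arrays, with no overlap (log2 fold change 0.33, SE 0.09, adjusted p = 0.126 by limma). The groups did not overlap for 2 of the 24 genes, against 10.4% of all genes.

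Of 22 other rhythmic liver genes, 0 passed, and the median log2 fold change was 0.25. At an unadjusted p under 0.05, 2 had higher and 0 lower means, against 6.41% and 9.71% of all genes. Noct (nocturnin) was 128%, 79.5%, 60.3% and 162% on the controls and 172%, 207%, 212% and 240% on the shRaly arrays, with no overlap (log2 fold change 1.04, SE 0.29, adjusted p = 0.126 by limma). Lpin1, the phosphatidate phosphatase lipin 1, stood at 1.38 (SE 0.39, adjusted p = 0.137). For both, control 3 was the lowest array and control 2 the next. The groups did not overlap for 1 of the 22 genes, against 10.4% of all genes.

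Of 16 glucocorticoid-responsive genes other than Per1 and Tsc22d3, 0 passed, 6 had an unadjusted p under 0.05 with higher and 1 with a lower mean, against 6.41% and 9.71% of all genes, and the median was 0.42. Ddit4, an inhibitor of mTOR signalling, stood at 1.13 (SE 0.34, adjusted p = 0.156 by limma), and Pck1, the gluconeogenic enzyme, at 0.39 (SE 0.13, adjusted p = 0.190). Of 12 temperature-responsive and heat shock genes, 0 passed, and the median was 0.18. At an unadjusted p under 0.05, 5 had higher and 0 lower means, against 6.41% and 9.71% of all genes. The groups did not overlap for 4 of the 12, against 10.4% of all genes. The chaperone genes Hsph1 and Hspa1a stood at 0.53 (SE 0.15, adjusted p = 0.133) and 1.01 (SE 0.30, adjusted p = 0.156), and the groups overlapped for neither. Hspa1a was highest on shRaly 4, at 399% of the control mean, with the other shRaly arrays between 123% and 188%, and its near-identical copy Hspa1b, which was not tested, could share its probe's signal.

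Among the marker lists of the liver's cell types 0 genes passed the threshold, with median log2 fold changes of -0.03 for hepatocytes (8 genes), 0.03 for Kupffer cells (6), -0.18 for endothelial cells (6), -0.20 for stellate cells (6), -0.03 for cholangiocytes (4), -0.18 for lymphocytes (5), 0.40 for neutrophils (3) and 0.54 for proliferating cells (4). At an unadjusted p under 0.05, 2 proliferating cell markers and 1 hepatocyte marker had higher means. Lower means were found for 3 endothelial, 2 lymphocyte and 2 hepatocyte markers. Of all genes, 6.41% were higher and 9.71% lower at that p. The higher hepatocyte marker was Tat, which is also counted among the glucocorticoid-responsive genes. The hepatocyte genes of smallest p were Alb (albumin) at -0.37 and Apoa1 (apolipoprotein A-I) at -0.47. Among endothelial markers these were Stab2 at -0.31 and Flt1 at -0.38, and among lymphocyte markers Cd3e at -0.39 and Cd79a at -0.36. In the proliferating cell list the mitotic kinases Plk1 and Aurka stood at 0.74 and 0.83. The groups did not overlap for Stab2, Cd3e, Cd79a and Plk1, beside 10.4% of all genes. Genes of smallest p in the remaining lists were S100a9 (0.40) and S100a8 (0.41) for neutrophils, Lrat (-0.56) and Col3a1 (-0.25) for stellate cells, Vsig4 (-0.19) and Cd5l (0.13) for Kupffer cells, and Sox9 (-0.21) and Epcam (-0.22) for cholangiocytes. The proliferating cell list had medians from -0.31 to 0.25 on the controls and from 0.03 to 1.12 on the shRaly arrays, and the neutrophil list from -0.63 to 0.48 and from 0.18 to 0.57. Their part in the values of the clock genes was not tested.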

How the data were processed

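RNA of 8 mouse liver samples (4 control, 4 shRaly) was measured on single-colour Agilent arrays. The deposited intensity values are processed, mean and background signals. Per the file headers they came from Feature Extraction 11.5.1.1 (11.5.1.11 in the submitters' processing notes), which subtracted background within each array and set a surrogate where a spot was not above it; no step between arrays is recorded there. The deposited series table equalled the processed intensity for 62976 of 62976 spots on every array, within a relative tolerance of 1e-06, with column medians between 13.3 and 16.4.

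For the comparisons, log2 of the processed signal minus each array's 75th percentile over non-control spots was used. Spots flagged as outliers were set to missing, and spots of a probe were averaged; no spot was saturated. Probes were named through their RefSeq accession or symbol in a GRCm38.p6 gene table, used for names; probe coordinates are those of the files (mm9), and exon or UTR positions were not analysed here. Genes entered the test with a probe well above background on at least 4 arrays and 3 values per group, by the probe of highest mean. Groups were taken from the titles and compared with limma 3.58.1 in R 4.3.3 (lmFit, eBayes, Benjamini-Hochberg over 14874 genes, threshold 0.05), tested on simulated data. Per-array values are percentages of the geometric control mean. Single genes and pairs were also given exact permutation tests in Python 3.11.15.

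The members and lists were chosen with earlier results of these data known. All members, Raly, and the 2 genes of smallest p in each list with none past the threshold were named, except 1 gene of the other clock regulators that is not reported here. The alternatives were background correction, scaling, the filter, the probe rule, the eBayes settings, a replicate block and leaving out each array. Precision is limited by the number of arrays.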

Additional observations from a re-analysis of the deposited data

Results flagged for a closer look

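Dbp on shRaly 2 stood apart from the other 3 shRaly arrays: it was 126% of the control mean against 90.2% to 92.0%, and its gap to the next array was 0.938 of the range of the group. It was the 1 case flagged among 58 groups of 4 values examined (28 members and Raly, in each group). By chance the flag is met in about 1 in 20 groups, a rate that belongs to the flag and not to a gap of this size. On the second Dbp probe shRaly 2 was again the highest shRaly array, at 116% of the control mean against 88.1% to 96.4%. That probe had a log2 difference of -0.03 between the groups.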

How the results depend on the processing

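Over 9 alternatives and 8 leave-outs, 0 of 475 fits of single members passed the threshold. The sign of 9 members changed in 30 of these fits, all 9 with a log2 fold change of at most 0.10 in size as reported. The count at an unadjusted p under 0.05 ran from 4 (without control 3) to 10 (without control 4), and was 5 without control 2 and without shRaly 2. The difference of the arms was 0.16 to 0.58 in the leave-outs and 0.24 to 0.54 otherwise. The highest of these values were above the SD of the shRaly arrays (0.48) and below that of the controls (0.63). The median of the members was -0.04 to 0.07 over all settings. Of 13 other probes of the members 10 passed the filter, 5 of them with the opposite sign, for Csnk1d, Cirbp, Rbm3 (both) and Lonrf3. The count over all genes, 182 as reported, depended on single arrays, from 17 (without control 2) to 282 (without shRaly 2), and was 42 with no filter on dim probes. Raly passed with normexp background correction (-0.71), with an intensity trend and robust eBayes (-0.68, adjusted p = 0.0383) and without shRaly 2 (leave-out range -0.80 to -0.59). Without shRaly 2, 1 of the glucocorticoid-responsive genes passed, Cdkn1a (1.45, adjusted p = 0.0123), against 0 in the other leave-outs, as did the proliferating cell markers Plk1 (0.91) and Aurka (1.07). With a replicate block the count over all genes was 46 and that of members at an unadjusted p under 0.05 was 9, with 0 members past the threshold. Over all genes, samples of the same number did not deviate together (correlations of 0.08, -0.02, -0.07 and 0.14). These correlations do not describe single genes. With the replicate block the SE of Arntl was 0.15 against 0.31 without it, and that of Per3 0.14 against 0.33. For Nr1d2 the SE rose, to 0.15 from 0.13. Neither a pairing of samples by number nor the cause of the changes between settings was tested.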
